A study of Mus musculus with 6 samples.

Results

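Transforming growth factor beta (TGF-β) signalling was examined through 10 genes: the ligands Tgfb1, Tgfb2 and Tgfb3, the latency protein Ltbp1, the receptors Tgfbr1, Tgfbr2 and Tgfbr3, and the signal carriers and inhibitor Smad2, Smad3 and Smad7. All probe sets that the platform annotation assigns to exactly 1 of these symbols were taken, which gave 25 of the 45037 probe sets tested. A probe set is a group of short probes on the array that together report 1 transcript. Expression was measured on 6 Affymetrix arrays, 3 of reactive and 3 of non-reactive astrocytes, each carrying RNA of a pool from about 15 mice. The reactive cells came from TgN(hGFAP-EGFP) GFEA mice, where the human GFAP promoter drives green fluorescent protein. The grey matter of their somatosensory cortex had been stabbed 5 days earlier, to a depth of 0.7 mm and over a length of 1 to 1.2 mm. The non-reactive cells came from the matching cortex of Tg(Aldh1l1-eGFP)OFC789Gsat mice without injury. Both groups were FVB/N mice aged 2 to 3 months, of undetermined sex, and all cells were sorted for green fluorescence. The protocol also describes BrdU labelling of dividing cells, without saying whether the pooled animals received it. Every reactive array is from the one reporter line and every non-reactive array from the other, so injury and reporter line cannot be told apart in any difference below.

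TGF-β ligands are secreted in a latent form that latent TGF-β binding proteins tether to the extracellular matrix and that integrins and proteases release. The active ligand binds the type II receptor Tgfbr2, which recruits and activates the type I receptor Tgfbr1. That kinase phosphorylates Smad2 and Smad3, which enter the nucleus with Smad4, and the induced inhibitor Smad7 shuts the receptor off. In the injured brain the pathway is known for its part in scar and matrix formation by astrocytes and fibroblasts, and in the uninjured brain for maintaining the identity of microglia.

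The values are log2 expression values. The median of all probe set means was 4.74, and a probe set with a mean under it is called dim here, since its differences are compressed. Array medians ran from 4.65 to 4.73, and the first principal component, with 37.1% of the variance, separated the groups. The next component, with 23.4%, held reactive replicate 3 away from the rest of its group, with a score of -99.3 against 77.95 and 57.1 for replicates 1 and 2. Astrocyte markers were bright on all arrays, with mean levels over 12 genes of 9.55 to 9.79 on the reactive and 10.67 to 11.07 on the non-reactive arrays. Of the 12, Gfap, whose human promoter was used to sort the reactive cells, rose and 5 fell, against 0.39% and 0.561% of all genes. The 14 microglia and macrophage markers averaged 9.68 to 10.24 on the reactive and 7.68 to 7.93 on the non-reactive arrays, so transcripts of these cells were also present in both groups. The 3′ minus 5′ difference of control transcripts, a measure of RNA shortening, was 1.44 for Pcx, 3.38 for Actb and 4.17 for Gapdh on the reactive arrays, against 3.46, 5.05 and 5.19 on the non-reactive arrays, as log2 means. For 18S rRNA it went the other way, at 0.83 on the reactive and -1.15 on the non-reactive arrays, and for Tfrc the means were 0.55 on the reactive and 0.43 on the non-reactive arrays. The part of RNA quality in the results below was not tested. In such pools, more cells of a type and more RNA per cell cannot be told apart.

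None of the 25 probe sets passed the test. The comparison was limma's moderated test of reactive minus non-reactive on the whole table, with Benjamini-Hochberg adjustment over all probe sets and a threshold of 0.05. It called 0.85% of all 45037 probe sets, of which 120 (0.266%) rose and 263 (0.584%) fell. At an unadjusted p under 0.05 there were 2 of the 25, against 13.2% of all probe sets. The groups did not overlap for 5 of the 25, 3 of them higher and 2 lower on the reactive arrays, against 20.9% of all probe sets (12.8% higher and 8.08% lower), so the share is near that of the whole table. Differences above 0 were measured for 13 and below 0 for 12, against 27196 above 0 among all 45037 probe sets. The median log2 difference was 0.07, against 0.10 over all probe sets. Of the 25, 12 had a mean at or above 4.74.

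**Figure D1:**
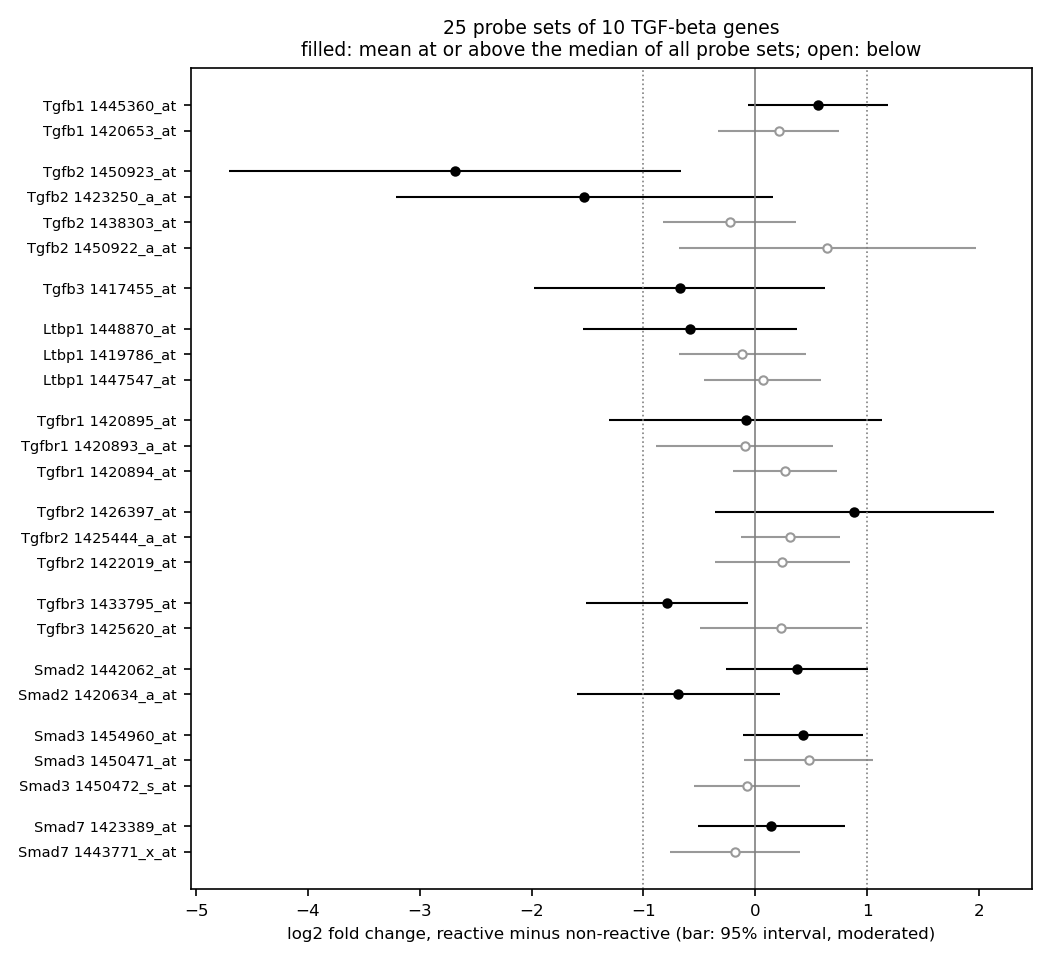
Log2 fold change, reactive minus non-reactive, of each of the 25 probe sets, with its unadjusted 95% interval. Filled points have means at or above the median of all probe sets, open points are dim, and dotted lines mark 2-fold. All but the first 2 Tgfb2 probe sets have differences inside 2-fold, and Tgfb2 1450923_at lies farthest from 0, at -2.68.

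The precision differed widely between probe sets. Standard errors ran from 0.19 to 0.85 on the log2 scale, with a median of 0.27. For 13 probe sets the unadjusted 95% interval lay within a 2-fold change in either direction, but only 2 of these, Smad3 1454960_at and Smad7 1423389_at, were not dim. For the other 10 probe sets that were not dim, the intervals reached changes of 2-fold or more, so the missing calls do not show equal levels.

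Among the ligands, Tgfb2 had the largest difference of all the members. TGF-β2 is the isoform that astrocytes and neurons are known to make in the brain. At its brightest probe set, 1450923_at, Tgfb2 measured 4.42, 4.23 and 7.48 on reactive replicates 1, 2 and 3, against 7.80, 8.46 and 7.92 on the non-reactive replicates. Reactive replicates 1 and 2 were lower by over 3 log2 units than any non-reactive array, while reactive replicate 3 lay just under the lowest non-reactive array. The log2 difference was -2.68 (SE 0.85, 95% interval -4.71 to -0.66) and did not pass (limma adjusted p = 0.256, 5.38 ± 1.82 on the reactive and 8.06 ± 0.35 on the non-reactive arrays, SD, n = 3 each). Without reactive replicate 3, the array that stands apart, the same probe set fell by 3.73 (limma adjusted p = 0.0330). Without any other single array the difference was -2.11 to -2.81 and the limma adjusted p was 0.362 to 0.543.

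The other Tgfb2 probe sets did not all go the same way. The probe set 1423250_a_at measured 4.28, 4.29 and 6.50 on the reactive arrays, against 7.33, 5.66 and 6.66 on the non-reactive arrays. Reactive replicate 3 was again the highest of its group, and here it overlapped the non-reactive values. Its difference was -1.53 (SE 0.71, limma adjusted p = 0.417), and -2.27 without reactive replicate 3 (limma adjusted p = 0.131). The dim probe sets 1438303_at and 1450922_a_at differed by -0.23 and 0.65, with overlapping groups. The mean of the 4 probe sets differed by -0.95 (SE 0.31, limma adjusted p = 0.215).

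**Figure D2:**
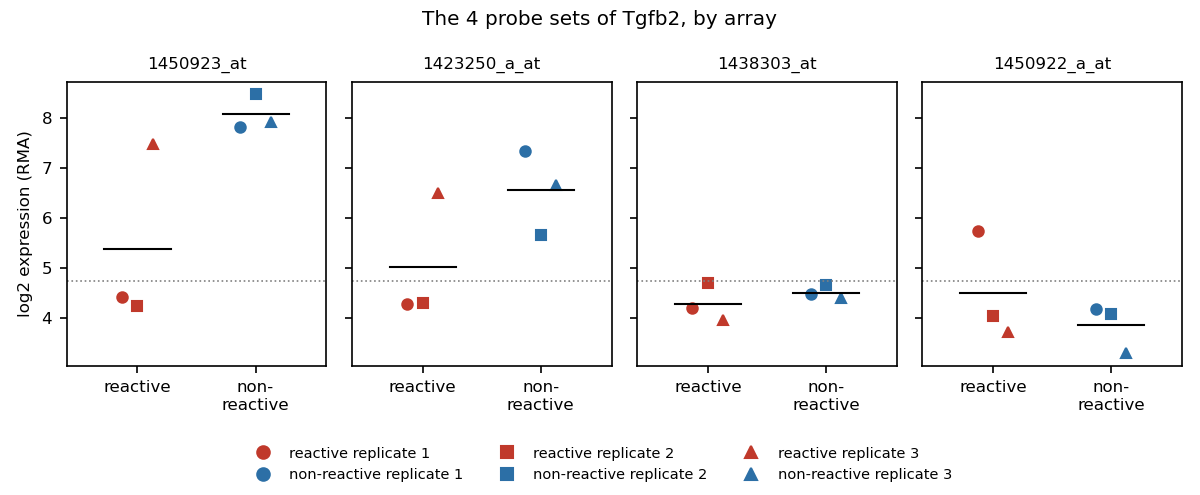
Log2 expression of the 4 Tgfb2 probe sets on each array, with group means as bars and the median of all probe sets as a dotted line. At the brightest, 1450923_at, reactive replicates 1 and 2 lie at 4.42 and 4.23 and reactive replicate 3 at 7.48, close to the non-reactive arrays. The dim probe sets on the right do not separate the groups.

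Tgfb1 encodes the isoform that microglia, macrophages and platelets are known to supply after injury. Its brighter probe set, 1445360_at, measured 5.70, 5.24 and 4.92 on the reactive arrays, against 4.54, 4.71 and 4.94 on the non-reactive arrays. Only reactive replicate 3 and non-reactive replicate 3 overlapped. The difference between the means was 0.56 (SE 0.26, 95% interval -0.07 to 1.19, limma adjusted p = 0.422). The dim probe set 1420653_at differed by 0.21 (95% interval -0.33 to 0.75). Of the 14 microglia and macrophage markers on the same arrays, 6 rose, against 0.39% of all genes. These markers averaged 9.78, 9.68 and 10.24 on reactive replicates 1, 2 and 3. Tgfb1 was lowest of the reactive group in replicate 3 at both probe sets. The part of these cells in the Tgfb1 values was not tested.

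Tgfb3, the third isoform, was read by 1 probe set. It measured 5.70, 6.18 and 4.24 on the reactive arrays, against 6.70, 5.74 and 5.71 on the non-reactive arrays. Reactive replicate 3 was the lowest of all 6, and the groups overlapped. On the log2 scale it differed by -0.68 (95% interval -1.98 to 0.63, limma adjusted p = 0.622), and -0.11 without reactive replicate 3. In that array Tgfb3 was the lowest of its group, while Tgfb2 was the highest of its group at its 2 brighter probe sets and the lowest at its 2 dim ones.

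Ltbp1 encodes the protein that anchors latent TGF-β in the matrix. Its brightest probe set, 1448870_at, measured 4.41, 4.71 and 5.86 on the reactive arrays, against 5.28, 5.79 and 5.66 on the non-reactive arrays. Reactive replicates 1 and 2 were below all non-reactive arrays and reactive replicate 3 was above them, so the groups overlapped. The log2 difference was -0.58 (95% interval -1.54 to 0.38, limma adjusted p = 0.570), and -1.01 without reactive replicate 3 (limma adjusted p = 0.182). The other 2 probe sets were dim and differed by -0.12 and 0.07. Reactive replicate 3 was the highest of its group at 1447547_at but not at 1419786_at.

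**Figure D3:**
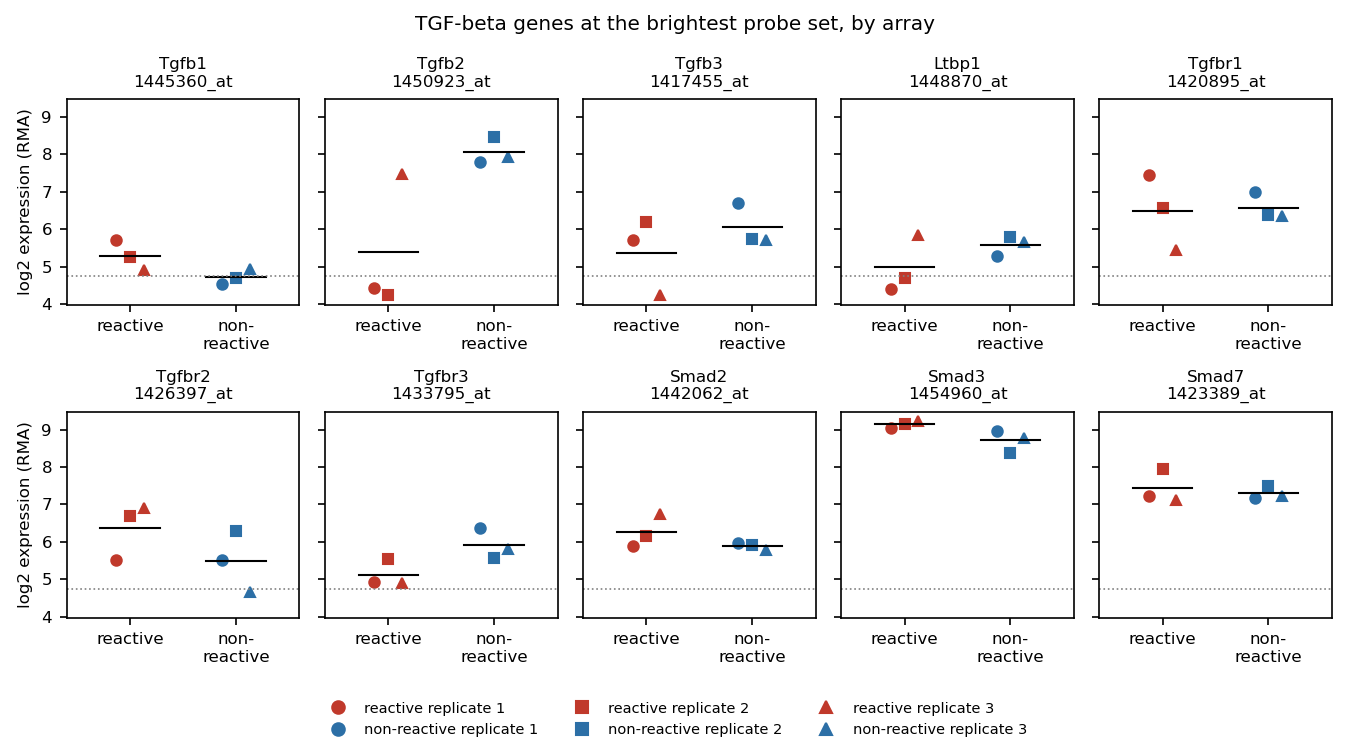
Log2 expression of each of the 10 genes at its brightest probe set, by array, with group means as bars and the median of all probe sets, 4.74, as a dotted line. The groups do not overlap for Tgfb2, Tgfbr3 and Smad3, and overlap for the other 7 genes.

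Of the receptors, Tgfbr1, the kinase that signals to the Smads, averaged 6.48 on the reactive and 6.57 on the non-reactive arrays at 1420895_at. It measured 7.45, 6.56 and 5.44 on the reactive arrays, against 7.00, 6.37 and 6.34 on the non-reactive arrays. The reactive values spread over more than the whole non-reactive range, with replicate 3 the lowest. The groups differed by -0.09 (95% interval -1.31 to 1.13, limma adjusted p = 0.955), and 0.44 without reactive replicate 3, with no call either way. The remaining 2 probe sets were dim and differed by -0.09 and 0.27.

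Tgfbr2, the receptor that binds the ligand, had differences above 0 at all 3 probe sets. At 1426397_at it measured 5.52, 6.70 and 6.89 on the reactive arrays, against 5.52, 6.28 and 4.65 on the non-reactive arrays. The highest non-reactive array lay above reactive replicate 1. The log2 difference was 0.89 (SE 0.52, 95% interval -0.36 to 2.13, limma adjusted p = 0.513). The dim probe sets 1425444_a_at and 1422019_at differed by 0.32 and 0.24, and for the first of them the groups did not overlap. The mean of the 3 differed by 0.48 (limma adjusted p = 0.355).

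Tgfbr3, or betaglycan, is the co-receptor that presents ligand, TGF-β2 in particular, to Tgfbr2. At 1433795_at it measured 4.93, 5.55 and 4.90 on the reactive arrays, against 6.38, 5.57 and 5.80 on the non-reactive arrays. All reactive arrays were lower, though reactive replicate 2 and non-reactive replicate 2 were nearly equal. Its difference was -0.79 (SE 0.30, 95% interval -1.52 to -0.07, limma adjusted p = 0.341). Its dim second probe set, 1425620_at, differed by 0.23. Tgfb2 at 1450923_at and Tgfbr3 at 1433795_at were the 2 member probe sets with an unadjusted p under 0.05, at 0.0167 and 0.0368, and both were lower on the reactive arrays.

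Smad3, a carrier of the signal to the nucleus, had the smallest spread between reactive arrays among the 10 genes at their brightest probe sets (SD 0.09). At 1454960_at it measured 9.04, 9.16 and 9.23 on the reactive arrays, against 8.97, 8.38 and 8.78 on the non-reactive arrays. All reactive arrays were higher, by little. The difference between the means was 0.43 (SE 0.22, 95% interval -0.11 to 0.97, limma adjusted p = 0.468), so a rise of more than 2-fold lay outside its unadjusted interval. The dim probe sets 1450471_at and 1450472_s_at differed by 0.48 and -0.07.

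Smad2, the other carrier, was read by a pair of probe sets that went opposite ways. At 1442062_at it measured 5.88, 6.16 and 6.74 on the reactive arrays, against 5.98, 5.91 and 5.79 on the non-reactive arrays, a difference of 0.37 (95% interval -0.26 to 1.00, limma adjusted p = 0.581). At 1420634_a_at it measured 4.77, 5.20 and 4.92 on the reactive arrays, against 5.95, 6.17 and 4.83 on the non-reactive arrays, a difference of -0.69 (95% interval -1.59 to 0.22, limma adjusted p = 0.488). The groups overlapped at both, neither was dim, and no direction for Smad2 can be given.

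Smad7, the feedback inhibitor that TGF-β itself induces, measured 7.23, 7.95 and 7.13 at 1423389_at on the reactive arrays, against 7.18, 7.49 and 7.21 on the non-reactive arrays. Apart from reactive replicate 2, all arrays were within a narrow range. On the log2 scale it differed by 0.15 (95% interval -0.51 to 0.81, limma adjusted p = 0.841). Its other probe set was dim and differed by -0.18.

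The rest of the pathway was described with 4 lists, in which a gene stands at its brightest probe set. Of the 72 genes measured, 1 rose and 1 fell, against 0.951% of all 18193 genes called, 0.39% that rose and 0.561% that fell. Both were in the list of target genes. Of the 17 genes of latency and activation none passed, 3 were higher and 2 lower in all reactive arrays than in all non-reactive arrays, against 13.5% and 8.2% of all genes, and the median log2 difference was 0.11, against 0.12 over all genes. Of the 10 other receptors none passed and the median was 0.11. Of the 21 other Smads, partners and inhibitors none passed and the median was 0.02.

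Within the latency list the brightest genes were Ltbp3, Itgav and Itgb5. Ltbp3, a relative of Ltbp1, differed by -0.53 (SE 0.37). Itgav, the αv chain of the integrins that release TGF-β, measured 9.67, 10.06 and 10.01 on the reactive arrays, against 10.49, 10.48 and 10.51 on the non-reactive arrays, a difference of -0.58 (SE 0.20, limma adjusted p = 0.291). Itgav was lower in all reactive arrays, but a second probe set at lower levels differed by 0.73 without overlap, so its probe sets do not settle a direction. Itgb5, a partner of Itgav, differed by -0.13.

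The following were chosen after their values were seen. Itgb8, the αv partner through which astrocytes are known to activate TGF-β, measured 4.65, 6.81 and 5.34 on the reactive arrays, against 7.51, 7.25 and 6.89 on the non-reactive arrays. All reactive arrays were lower, with a wide spread, and the difference of -1.62 (SE 0.54) did not pass (limma adjusted p = 0.282). Bgn, the matrix proteoglycan biglycan that binds TGF-β, was higher in all reactive arrays at its 3 probe sets, by 1.43, 1.24 and 0.78, and none passed (limma adjusted p of 0.0870 for the first). Nrros, which anchors latent TGF-β1 on microglia and macrophages, differed by 0.48 (limma adjusted p = 0.463) without overlap.

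Among the other receptors, the brightest were Acvr1b, a type I activin receptor that also uses Smad2 and Smad3, Tgfbrap1, a receptor-associated adaptor, and Eng, the endothelial co-receptor endoglin. They differed by 0.57, 0.01 and -0.14. Acvr1, a type I receptor of bone morphogenetic proteins also picked with its values known, differed by 2.85 (SE 0.80, limma adjusted p = 0.207), but its other 2 probe sets by 0.44 and 0.17. Among the Smads and their regulators, Smad4, the common partner, differed by -0.08, the phosphatase gene Ppm1a by 0.40 and the inhibitor Pmepa1 by 0.02.

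Most target genes had differences above 0, and their levels stood out on 1 array. Of 24 measured genes that TGF-β is known to induce in various cell types, 22 had differences above 0, against 11037 of all 18193 genes. The median was 1.12, against 0.12 over all genes. The list was chosen with earlier results of these data known. Its genes Ccn2, Col3a1, Snai2, Cdkn2b, Postn, Lox and Snai1 were dim. The groups did not overlap for 6 that were higher and 1 that was lower on the reactive arrays, against 13.5% and 8.2% of all genes. The mean level of the list was 5.77, 5.74 and 7.62 on reactive replicates 1, 2 and 3, against 5.41, 5.42 and 5.54 on the non-reactive replicates. Reactive replicate 3 held the highest value of all 6 arrays for 15 of the 24 genes (62.5%), against 22.6% of all genes. Without that array the median difference was 0.33, against 0.11 over all genes.

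**Figure D4:**
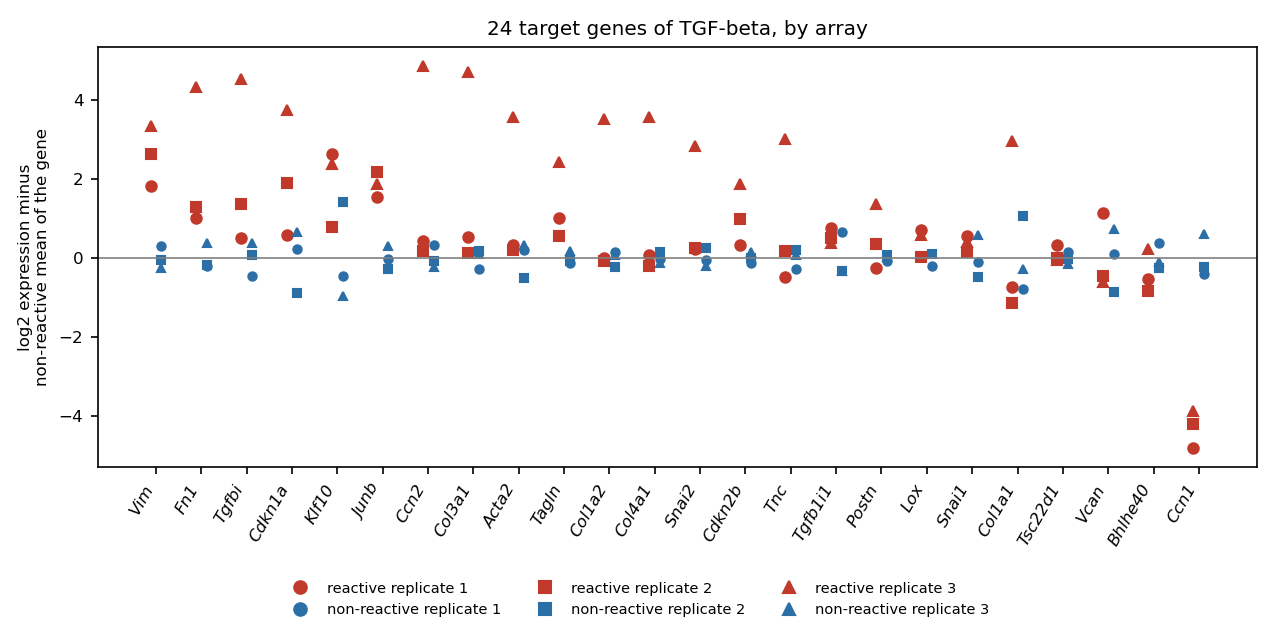
Log2 expression of the 24 target genes on each array, minus the gene's non-reactive mean, with genes ordered by the difference between the groups. Each gene is drawn at its brightest probe set. Reactive replicate 3 (red triangles) lies well above the other 5 arrays for the collagens, Ccn2, Tnc and Tgfbi. Junb and Vim are higher in all 3 reactive arrays. Ccn1 is lower in all 3 at the probe set drawn, but not at 2 of its other probe sets.

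Junb, a transcription factor of the immediate early class, rose by 1.86 (SE 0.26, limma adjusted p = 0.0418). It measured 7.92, 8.56 and 8.25 on the reactive arrays, against 6.35, 6.11 and 6.68 on the non-reactive arrays. The groups were clearly apart, but the call was lost without any 1 array (limma adjusted p of 0.0685 to 0.154). In those fits Junb differed by 1.70 to 2.02, and 1 to 173 of all probe sets were called, against 383 with all arrays. Ccn1, a matricellular protein gene, fell by 4.28 (SE 0.37, limma adjusted p = 0.0199) at its brightest probe set and by 4.79 at another, while the other 2 differed by -1.21 and -0.41. At those 2, reactive replicates 1 and 2 were below all non-reactive arrays, but reactive replicate 3 was the highest of all 6, at 7.96 and 6.82. The probe sets thus do not settle a direction for that array. At the brightest probe set the reactive values of 3.56, 4.19 and 4.51 were dim, against 7.98, 8.15 and 8.98 on the non-reactive arrays. The size of the fall is therefore uncertain. The call of Ccn1 was lost without any 1 of the non-reactive arrays (limma adjusted p of 0.0582 to 0.0701). Those fits called 1, 1 and 4 of all 45037 probe sets, and Ccn1 differed in them by -3.98 to -4.48. The call was also lost with the 4 Ccn1 probe sets averaged, at a difference of -2.67 (limma adjusted p = 0.0529).

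The brightest targets without a call were Tsc22d1, a transcriptional regulator, Tgfb1i1, a focal adhesion protein, and Cdkn1a, a cell cycle inhibitor. Tsc22d1 differed by 0.09, Tgfb1i1 by 0.54 and Cdkn1a by 2.06 (SE 0.81, limma adjusted p = 0.350). The matrix genes that follow were chosen after their values were seen. Tgfbi, named for its induction by TGF-β, measured 6.55, 7.42 and 10.59 on the reactive arrays, against 5.61, 6.12 and 6.44 on the non-reactive arrays. Fn1, fibronectin, measured 5.84, 6.12 and 9.15 on the reactive arrays, against 4.61, 4.65 and 5.21 on the non-reactive arrays. Both were higher in all reactive arrays, by far the most in replicate 3, and neither passed (limma adjusted p of 0.418 and 0.342).

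Col3a1, a fibrillar collagen, measured 3.52, 3.12 and 7.70 on the reactive arrays, against 2.71, 3.18 and 3.09 on the non-reactive arrays. It was thus above the median of the table in reactive replicate 3 only. Col1a1 was at 8.22 in that array, at 4.53 and 4.14 in the other reactive arrays, and at 4.50, 6.33 and 4.98 on the non-reactive arrays. Vim, the filament vimentin and also a marker of reactive astrocytes, differed by 2.59 at its brightest probe set (limma adjusted p = 0.0512) and rose by 3.40 and 3.81 at its other 2. Vim was higher in all 3 reactive arrays.

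Endothelial markers averaged 4.82, 4.50 and 5.85 on reactive replicates 1, 2 and 3, against 4.28 to 4.70 on the non-reactive arrays, with 0 of 9 past the threshold in limma, against 0.951% of all genes. Markers of blood monocytes and neutrophils averaged 6.58, 6.29 and 7.95 on the reactive arrays, against 4.27 to 4.78 on the non-reactive arrays, and 3 of 7 rose, against 0.39% of all genes. Those that rose were Lyz2, Cd52 and Plac8. Chil3, S100a8, S100a9 and Ccr2 differed by 2.08, 1.40, 0.71 and -0.03 without passing. Chil3 measured 3.53, 3.19 and 8.33 on reactive replicates 1, 2 and 3. Neuronal markers averaged 8.33, 8.96 and 7.40 on the reactive arrays, against 8.12 to 8.59 on the non-reactive arrays, so reactive replicate 3 was the lowest there. Markers of perivascular fibroblasts and meninges averaged 3.80 to 4.23 on the reactive and 3.80 to 4.34 on the non-reactive arrays (none of 7 passed, against 0.951% of all genes). Within that list the differences ran from -1.97 for Pdgfrl to 0.80 for Slc6a13. All of its genes but Igf2 were dim, so the similar list means do not show equal levels. Oligodendrocyte markers averaged 9.79 to 10.37 on the reactive and 8.22 to 9.16 on the non-reactive arrays (1 of 9 rose, against 0.39% of all genes), and those of their precursors 7.11 to 7.67 on the reactive and 6.51 to 7.10 on the non-reactive arrays (none of 7 passed, against 0.951% of all genes). Reactive replicate 3 was also the highest array for oligodendrocyte markers, at 10.37, and for microglia and macrophage markers, at 10.24. It held the highest value for 77.8% and 78.6% of their genes. The share was 77.8% for endothelial and 71.4% for blood monocyte and neutrophil markers, against 22.6% of all genes. Pericyte and smooth muscle markers averaged 4.31 to 4.82 on the reactive and 4.70 to 5.04 on the non-reactive arrays (none of 8 passed, against 0.951% of all genes). Of the 8, 2 were lower in all reactive arrays without overlap, against 8.2% of all genes. These were Pdgfrb and Rgs5, which differed by -2.24 and -0.98. Higd1b, Myh11, Abcc9, Anpep and Cnn1 were dim. The part of these cell types in the values of Tgfb1, Tgfb2, Ltbp1 and the target genes was not tested.

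**Figure D5:**
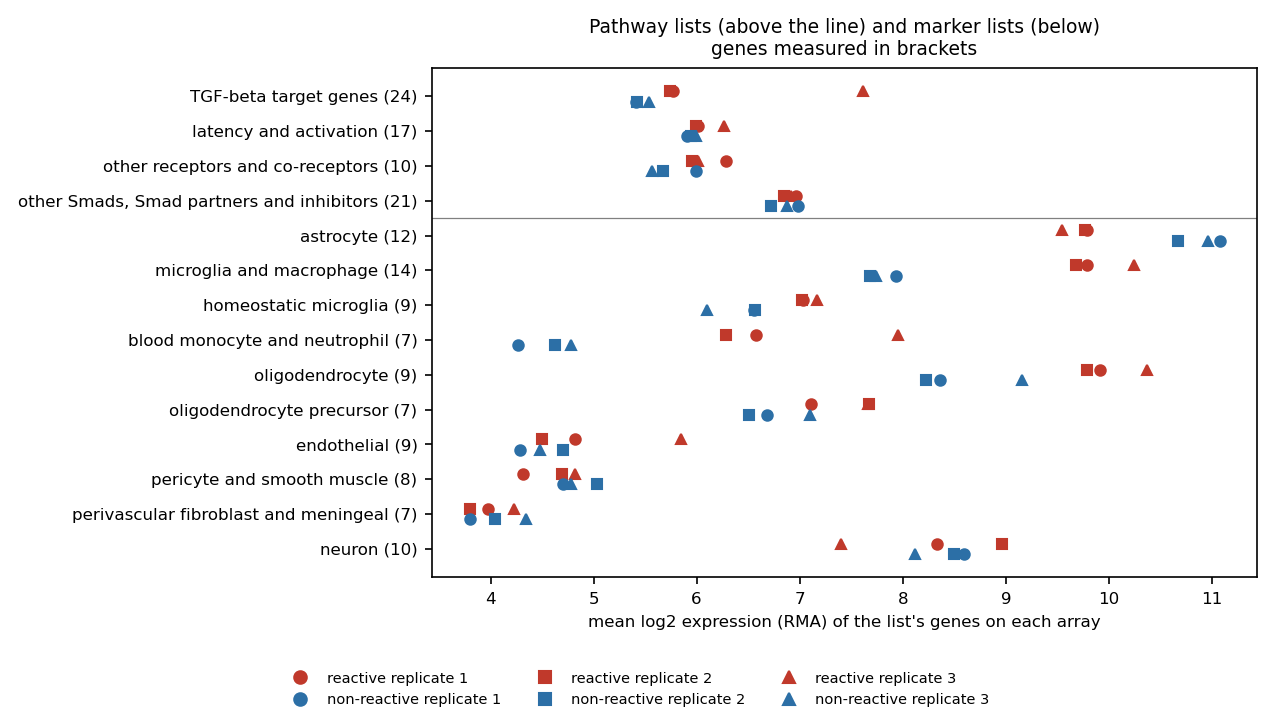
Mean log2 expression over the genes of each pathway list (above the line) and each cell type marker list (below it) on each array, with the number of genes measured in brackets. The target genes stand at 7.62 in reactive replicate 3 and at 5.41 to 5.77 on the other 5 arrays. The latency list and the markers of endothelium, blood leukocytes, microglia and macrophages, homeostatic microglia and oligodendrocytes are also highest in that array.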

How the data were processed

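The deposited values are log2 expression values from the authors, who used robust multi-array averaging (RMA), per the submitters' processing notes. Which version, background setting and array set they used is not given in the sources used. RMA usually equalises the arrays' distributions, which hides changes in total RNA. RNA was amplified in 2 rounds, per the labels' protocols. The table held 45101 probe sets on 6 arrays. The 64 control probe sets were left out, which left 45037. The platform annotation gave 34945 of them 1 symbol, 932 several and 9160 none. Another gene stands at its 1-symbol probe set with the highest mean, which gave 18193 genes.

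Groups were compared in R 4.3.3 with limma 3.58.1 (lmFit, eBayes), on all 6 arrays and without covariates, two-sided, with Benjamini-Hochberg adjustment over 45037 probe sets. Errors are moderated standard errors. The fit was tested on simulated data. The number of arrays limits the precision. The arrays are labelled as biological replicates made from pools.

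The members and lists were chosen with earlier results of these data known. Named were all member probe sets and, from each pathway list, genes past the threshold (up to 6) and the 3 others with the highest mean. The 4 pathway lists and 10 marker lists (astrocyte, microglia and macrophage, homeostatic microglia, blood monocyte and neutrophil, oligodendrocyte, oligodendrocyte precursor, endothelial, pericyte and smooth muscle, perivascular fibroblast and meningeal, neuron) were counted, not tested as sets. Alternatives covered normalization, variance model, array weights, a level filter, probe set choice, suffixes, the replicate number as a block and each array left out.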

Additional observations from a re-analysis of the deposited data

How the results depend on the processing

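Across the alternatives, 0 members passed (limma), except without reactive replicate 3, where Tgfb2 1450923_at passed; leaving out 1 array gave 0 to 1. The smallest limma adjusted p of a member ran from 0.180 to 0.311 under the other settings that kept all 6 arrays. The count over all 45037 probe sets was 1 with the replicate block. Without non-reactive replicates 1, 2 and 3 it was 1, 1 and 4, so those fits could hardly call a member. Without reactive replicates 1, 2 and 3 it was 57, 173 and 166. Of the other pathway genes, 3 passed (2 rose and 1 fell) with quantile normalization, with cyclic loess, with array weights and with the level filter. With an intensity trend 1 passed, with the replicate block 0, and with 1 array left out 0 to 1. Averaged over probe sets, 2 rose and 0 fell, in place of 1 and 1. The level filter kept 56 of the 72 genes and called 377 of 22520 probe sets. Quantile normalization, cyclic loess, array weights and the intensity trend called 345, 403, 324 and 322 of all 45037 probe sets. Same-numbered arrays had correlations of -0.07, -0.11 and 0.04 in their deviations. No pairing by number was seen, but 3 arrays per group cannot exclude one. The replicate block gave no member a call, in a fit that called only 1 of all probe sets. No member had a call in the main fit, so the sign changes that follow could not concern a called member. Ltbp1 1447547_at differed by -0.053 with quantile normalization and by -0.11 with cyclic loess, and by -0.069 to 0.14 with 1 array left out. Averaged over their probe sets, Tgfbr1 differed by 0.029, Smad2 by -0.16 and Smad7 by -0.017. With 1 array left out, Ltbp1 1419786_at ran from -0.24 to 0.079, Tgfbr1 1420893_a_at from -0.39 to 0.15 and 1420895_at from -0.57 to 0.44, Smad7 1423389_at from -0.11 to 0.30, Tgfbr3 1425620_at from -0.072 to 0.45 and Smad3 1450472_s_at from -0.14 to 0.040. Causes were not tested. The median of all probe sets was 0.10, and 0.02 with cyclic loess. Dim signal limits 13 of the 25 probe sets.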

Other observations

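Genes of homeostatic microglia, several of which are known to need TGF-β for their expression, were measured on the same arrays. Of 9 genes, 7 had log2 differences above 0, against 11037 of all 18193 genes. The median was 0.81, against 0.12 over all genes. For the 14 microglia and macrophage markers it was 2.09, with all 14 above 0. In limma none of the 9 homeostatic genes rose and 1 fell, against 0.39% and 0.561% of all genes. Whether TGF-β had a part in these levels was not tested. Fcrls, an Fc receptor-like gene, measured 7.77, 7.86 and 9.17 in the reactive arrays, against 5.83, 5.99 and 5.58 in the non-reactive arrays, a difference of 2.47 (limma adjusted p = 0.0579). Tmem119, a membrane protein gene of resident microglia, measured 7.59, 7.80 and 7.85 in the reactive arrays, against 6.65, 6.35 and 6.68 in the non-reactive arrays, a difference of 1.19 (limma adjusted p = 0.0628). Both were higher in all reactive arrays without passing. The purine receptor gene P2ry12 differed by 0.84 and the transcription factor gene Sall1 by -0.37, with overlapping groups. Mertk, a receptor for engulfing dead cells that astrocytes and microglia both make, fell by 1.74 (limma adjusted p = 0.0441). It measured 8.61, 8.52 and 8.79 in the reactive arrays, against 10.68, 10.49 and 9.96 in the non-reactive arrays.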
